A study of Homo sapiens with 34 samples.

Results

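Histone marks were examined at 8 genes of the adrenergic core regulatory circuit in KELLY, a cell line from a human neuroblastoma in which MYCN is amplified. The genes were PHOX2A, HAND2, GATA3, GATA2, ISL1, TBX2, LMO1 and TFAP2B. They were chosen by name, though with earlier results of these data known, from 19970 protein-coding genes on chromosomes 1 to 22 and X. In every group the cells carried a short hairpin RNA, inducible with doxycycline, that targets the transcriptional co-repressor RUNX1T1, and peak lists cannot check its knockdown. One group per mark received the solvent DMSO and the other received doxycycline, which switches the hairpin on, both for 72 h. Chromatin immunoprecipitation with sequencing (ChIP-seq) for 5 marks gave 3 peak lists per mark and treatment, 30 in all. The control was therefore the same hairpin line without induction, and nothing in the labels says whether the 3 libraries of a group came from separate cultures, so their spread may be technical.

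A core regulatory circuit is a small set of transcription factors that bind their own and each other's enhancers and so hold a cell in one identity. In sympathetic neuroblasts and in adrenergic neuroblastoma this set is known to include the homeodomain proteins PHOX2A and ISL1, the basic helix-loop-helix protein HAND2, the zinc finger proteins GATA2 and GATA3, the T-box factor TBX2, the AP-2 family member TFAP2B, and LMO1, a LIM-domain cofactor that does not bind DNA itself. H3K4me3 marks active and bivalent promoters, H3K4me1 marks enhancers and promoter flanks, H3K4me2 lies at both, H3K27ac marks active elements and H3K27me3 marks Polycomb repression.

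All positions are on hg38 with the GENCODE annotation. HAND2 (ENSG00000164107) lies on the minus strand at chr4:173524969-173530229, and ISL1 (ENSG00000016082) on the plus strand at chr5:51383448-51394730. PHOX2A (ENSG00000165462) lies at chr11:72239077-72245664 and LMO1 (ENSG00000166407) at chr11:8224309-8268716, both on the minus strand. GATA3 (ENSG00000107485) lies at chr10:8045378-8075198 on the plus strand and GATA2 (ENSG00000179348) at chr3:128479427-128493201 on the minus strand. TBX2 (ENSG00000121068) at chr17:61399843-61409466 and TFAP2B (ENSG00000008196) at chr6:50818723-50847619 are both on the plus strand.

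The promoters below are shown because HAND2 and ISL1 were the members without H3K4me1 within 1 kb of any annotated start site. The ISL1 element is shown because it held the strongest peak near any member that was called in one treatment only. Capitals mark 3 motifs on either strand, which may overlap: CATCTG (a form of the E-box, the site of helix-loop-helix proteins), GATAA (the GATA factor site) and TAAT (the homeodomain core). The promoters are the 250 bases before the RefSeq start (GRCh38.p14), read in the direction of transcription. The element is the middle 300 bases of its region, read on the plus strand of hg38.
HAND2 promoter, chr4:173530230-173530479, minus strand: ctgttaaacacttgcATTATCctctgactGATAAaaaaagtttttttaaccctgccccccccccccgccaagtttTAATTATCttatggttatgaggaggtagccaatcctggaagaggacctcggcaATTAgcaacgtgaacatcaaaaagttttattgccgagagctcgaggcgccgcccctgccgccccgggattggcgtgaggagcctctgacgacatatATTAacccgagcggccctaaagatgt
ISL1 promoter, chr5:51383198-51383447, plus strand: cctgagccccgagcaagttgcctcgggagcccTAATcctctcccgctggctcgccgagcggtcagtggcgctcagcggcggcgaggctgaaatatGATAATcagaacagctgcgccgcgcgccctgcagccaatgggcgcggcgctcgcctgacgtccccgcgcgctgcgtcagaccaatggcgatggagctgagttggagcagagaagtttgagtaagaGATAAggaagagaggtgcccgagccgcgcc
ISL1 upstream element, chr5:51367684-51367983, plus strand: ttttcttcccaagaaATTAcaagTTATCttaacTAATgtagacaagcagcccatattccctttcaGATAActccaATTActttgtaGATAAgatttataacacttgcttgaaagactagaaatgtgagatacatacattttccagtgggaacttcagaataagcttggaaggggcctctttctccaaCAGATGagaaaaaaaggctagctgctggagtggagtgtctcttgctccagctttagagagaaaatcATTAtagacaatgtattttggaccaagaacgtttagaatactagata

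The HAND2 promoter held GATAA 3 times and TAAT 5 times, and the ISL1 promoter held each of them 2 times. GATAA or its reverse complement occurred in 20.4% of 35116 RefSeq promoters of the same length, TAAT in 47.4% and CATCTG in 12.2%. CATCTG was in neither promoter and occurred 1 time in the ISL1 element, beside 3 copies of GATAA and 4 of TAAT. Of the 8 members, 7 had an entry in the promoter table (TBX2 had none), and in the other 5 of these GATAA was not found in the window. Such matches describe letters and say nothing about binding.

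The active promoter marks were present at every member and the repressive mark at none. A promoter here is the 1 kb either side of any annotated start site of the gene, and a peak overlapping it by 1 base counted. H3K4me3 and H3K27ac peaks were found at all 8 promoters in all 6 libraries, and H3K27me3 at none of the 8 in any library. Over all protein-coding genes, 71.9% had H3K4me3 in all 6 libraries, 64.2% had H3K27ac, 20.1% had H3K27me3 and 64.4% had H3K27me3 in 0 of 6. The whole pattern, both active marks in all 6 libraries and H3K27me3 in none, was held by 50.9% of genes and by 8 of 8 members. H3K4me2 was called in all 6 libraries at 7 members (71.8% of all genes) and H3K4me1 at 5 (61.4% of all genes).

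**Figure D1:**
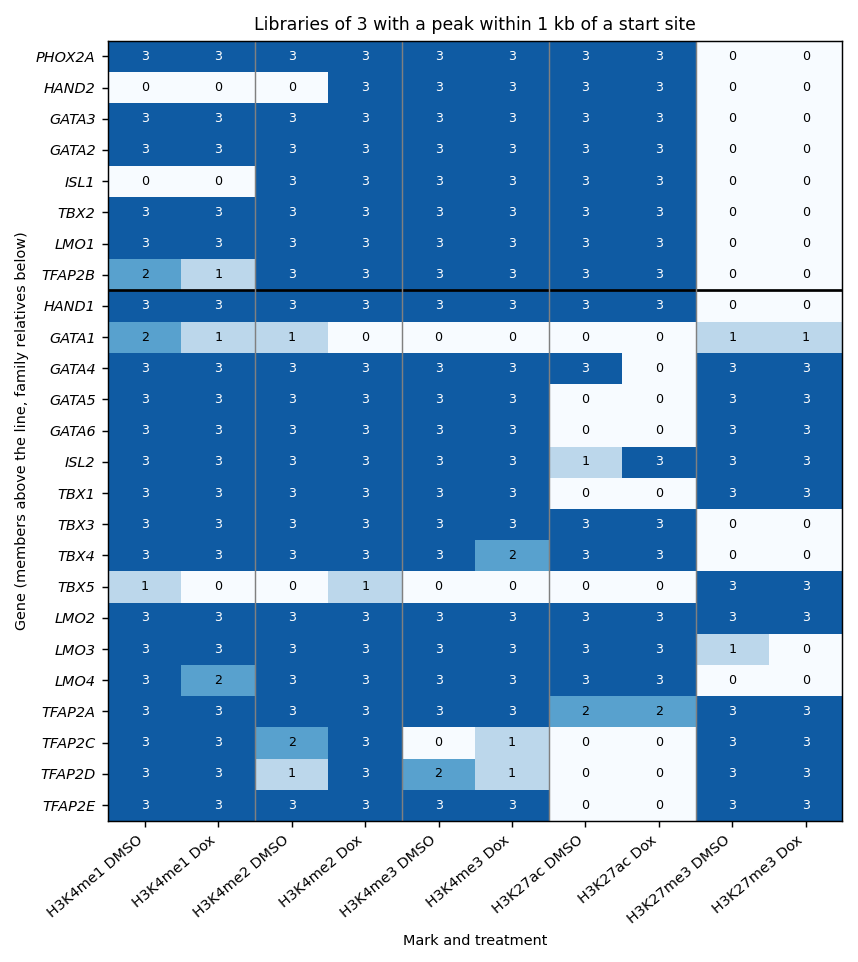
Number of libraries, of 3, with a peak within 1 kb of a start site, for each gene (rows) and each mark and treatment (columns). The 8 members lie above the black line, with 3 for H3K4me3 and H3K27ac and 0 for H3K27me3 throughout, and 17 relatives from the same gene families lie below it.

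Counting any annotated start, 3 members lacked a stable H3K4me1 call. At the MANE Select start alone, 1 reference start per gene, GATA3 and TBX2 also had no H3K4me1 peak within 1 kb in any library. By that start H3K4me1 was called in all 6 libraries at 2 members. HAND2 and ISL1 had no H3K4me1 promoter peak in any of the 6 libraries, as had 17.7% of all genes. TFAP2B had one in 2 of 3 DMSO libraries and in 1 of 3 doxycycline libraries, at low ranks. Its fold enrichment percentiles were 34.8 and 12.7 in the DMSO libraries with a peak and 9.50 in the doxycycline library. This percentile is the position of a peak's fold enrichment, the ratio of ChIP to input signal, among all peaks of its own list, with 100 for the strongest and 0 where no peak was called. At the HAND2 start the nearest H3K4me1 peaks lay 5.62 to 6.95 kb upstream and 7.73 to 8.45 kb downstream over the 6 libraries. The start of HAND2 thus sat in a gap in H3K4me1 that was present in both treatments.

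Relatives from the same families differed in state, and several had H3K27me3 together with an active mark. Of 17 relatives, 6 had H3K27ac at the promoter in all 6 libraries and 8 in none, while 11 had H3K27me3 in all 6. HAND1, TBX3 and LMO4 had both active marks in all 6 libraries and H3K27me3 in none, as the members had. GATA4, GATA5 and GATA6, which act mainly in heart and gut, had H3K27me3 in all 6 libraries, at median percentiles of 98.1, 98.4 and 97.8, together with H3K4me3 in all 6. GATA4 also had H3K27ac in all 3 DMSO libraries, at a mean percentile of 60.9, and in 0 of 3 with doxycycline. ISL2 went the other way, with H3K27ac in 1 of 3 DMSO and 3 of 3 doxycycline libraries (mean percentiles 13.5 and 43.6). The share of all genes with such shifts was not counted. GATA1, the erythroid member, had neither active mark in any library. ISL2, TBX1, TFAP2A and TFAP2E likewise had H3K4me3 and H3K27me3 in all 6, and at TBX5 H3K27me3 was the only mark called in all 6. LMO2 was the relative with H3K27ac and H3K27me3 both called in all 6, its H3K27ac at a median percentile of 34.5.

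The other genes of the circuit had the members' promoter pattern with the exceptions of MYCN and SATB1. Of 16 further circuit genes, 15 had H3K4me3 and H3K4me2 in all 6 libraries, 15 had H3K27ac in all 6, and 15 had H3K27me3 in none. At MYCN H3K27ac was called in all 3 DMSO libraries but in none with doxycycline, and H3K4me3 in 2 and 1. Its H3K27ac percentiles reached 0.119 at most, its H3K4me1 percentiles 0.0414 and its H3K4me3 percentiles 0.0266, near the bottom of their lists. Fold enrichment is a ratio to input, and MYCN is amplified in these cells. Neither these ranks nor the missing calls therefore show how strongly the promoter was marked, and the effect of amplification was not tested. SATB1 had 1 H3K27me3 peak in 1 doxycycline library. HAND1 and TBX3 are in both lists, so the lists are not independent.

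The labelled cell type was checked on chromatin at marker promoters. All 5 adrenergic neuroblast markers, the noradrenaline synthesis genes DBH and TH among them, had H3K4me3 and H3K27ac in all 6 libraries and H3K27me3 in none. Of 6 mesenchymal markers, 0 had H3K27ac in all 6 libraries and 5 had H3K27me3 in all 6. H3K27ac was called in all 6 libraries at 1 of 3 Schwann lineage markers (SOX10), at 0 of 2 endothelial, 0 of 2 leukocyte and 1 of 2 epithelial markers (EPCAM). PRRX1, PECAM1, CDH5, PTPRC and KRT5 had no H3K27ac peak in any library.

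The members' H3K27ac promoter peaks were among the strongest of their lists. Earlier studies cited by the paper tied circuit genes of this kind to super-enhancers, long clusters of active enhancers. Since H3K27ac marks active elements, its strength and length at the members are not independent of how such lists arose. At HAND2 the percentiles were 99.99, 99.97 and 99.93 in the DMSO libraries and 99.90, 99.84 and 99.65 in the doxycycline libraries. PHOX2A followed, with a lowest value of 99.2 and a highest of 99.9 over the 6 libraries. ISL1 ranged from 98.1 to 99.5, TFAP2B from 95.0 to 98.4, GATA3 from 94.7 to 98.9 and GATA2 from 93.9 to 98.7. TBX2 ranged from 92.4 to 96.4, and LMO1 from 81.7 to 94.5. The ranges of neighbours in this order overlapped, and the order differed between libraries. In doxycycline replicate 3 PHOX2A (99.85) was above HAND2, and in doxycycline replicate 1 LMO1 (94.5) was above TBX2 (93.8) and GATA2 (93.9). All members but LMO1, 7 of 8, were in the strongest 10% of the list in all 6 libraries, against 17.2% of all protein-coding genes, a limit chosen with the values seen. The median over members and libraries was 98.1, beside 89.0 over genes with an H3K27ac promoter peak in all 6 libraries.

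**Figure D2:**
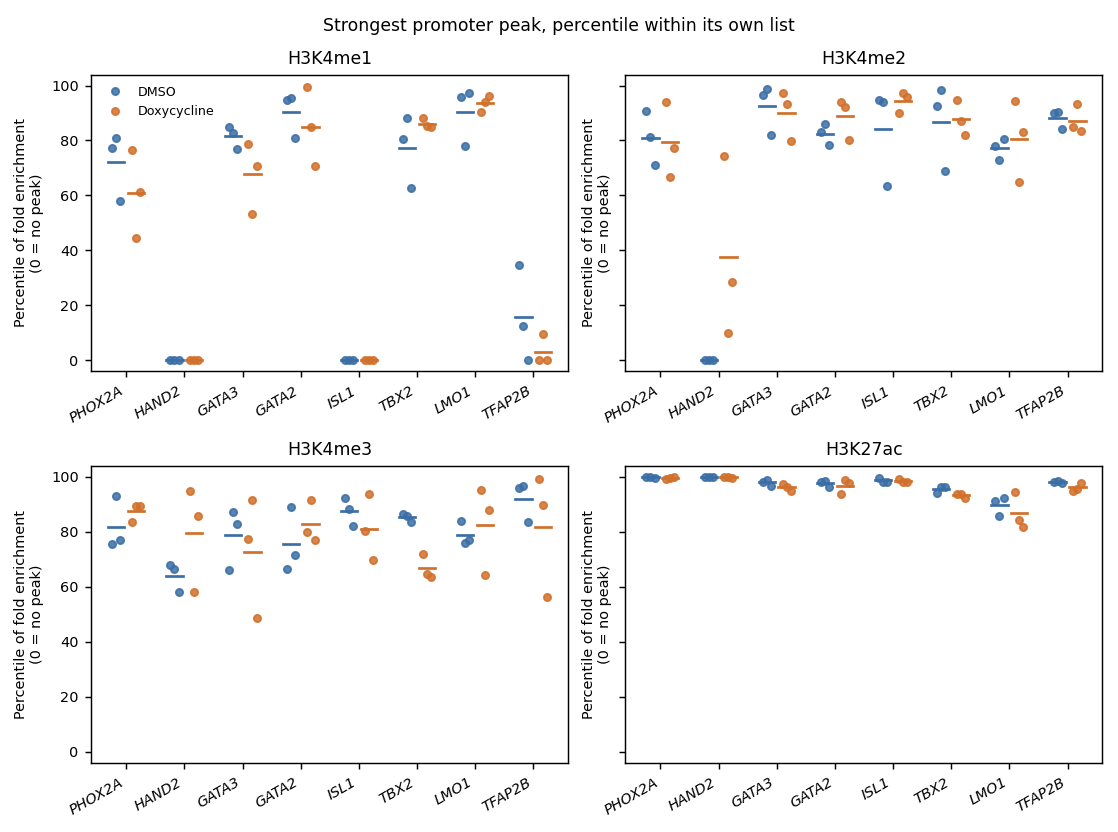
Percentile of fold enrichment (vertical axis, 0 to 100, 0 meaning no peak) of the strongest promoter peak of each member, for 4 marks. Points are single libraries (blue, DMSO; orange, doxycycline) and bars are means of 3; H3K27ac lies at 81.7 or above throughout, HAND2 and ISL1 lie at 0 for H3K4me1, and the TBX2 groups do not overlap for H3K4me3.

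The H3K4me3 peaks over the members stood out by width rather than by strength. The widest H3K4me3 promoter peak of HAND2 was 24.3, 24.3 and 19.3 kb in the DMSO libraries and 23.9, 23.9 and 9.03 kb in the doxycycline libraries. It ranked 1, 2 and 1 by width among all H3K4me3 peaks of the DMSO lists and 1, 1 and 11 among those of the doxycycline lists. In doxycycline replicate 3 the same stretch was called as several peaks, the longest of 9.03 and 6.44 kb, and in DMSO replicate 3 it was also split. GATA2 ranked between 1 and 5 at 14.7 to 18.9 kb, and GATA3 between 2 and 15 at 9.25 to 19.4 kb. ISL1 ranked 5 to 23, TFAP2B 8 to 18, TBX2 17 to 32 and PHOX2A 39 to 69. LMO1 again stood apart at 3.43 to 4.13 kb and ranks of 611 to 1245. Thus 7 of 8 members had an H3K4me3 promoter peak in the widest 1% of the list in all 6 libraries, beside 0.751% of all protein-coding genes (150 genes), again with the limit chosen after the values were seen. By strength these peaks were unremarkable: the median percentile of the members was 83.1, beside 74.5 for genes with a peak in all 6 libraries.

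H3K27ac ran over the whole gene at most members, and the link of circuit genes to super-enhancers limits this comparison with all genes too. It covered every base of PHOX2A (6.59 kb), HAND2 (5.26 kb), GATA3 (29.8 kb), GATA2 (13.8 kb) and TBX2 (9.62 kb) in all 6 libraries, which 1.06% of all genes showed. It covered 81.2 to 100% of LMO1, 82.7 to 100% of TFAP2B and 84.4 to 92.1% of ISL1. H3K4me3 covered all of HAND2 in all 6 libraries, at least 97.8% of PHOX2A and at least 98.6% of GATA2. It covered 57.9 to 63.0% of GATA3 and 59.6 to 80.8% of TBX2. H3K4me3 was confined to a smaller part of the 2 long genes LMO1 (13.4 to 20.5%) and TFAP2B (32.2 to 38.4%). H3K27me3 covered 0 kb of all 8 gene bodies in all 6 libraries. Within 100 kb it reached 1.83 to 11.2 kb near PHOX2A and 2.26 to 8.63 kb near TFAP2B, 1.19 kb or less near 5 other members, and 0 in every library near TBX2.

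The widest H3K27ac peak within 10 kb of a member was long in every case. For GATA2 it was 52.5, 52.1 and 46.1 kb in DMSO and 186, 52.6 and 47.3 kb in doxycycline. Doxycycline replicate 1 stood apart, and the other 5 libraries lay close together in both treatments. For HAND2 it was 40.5, 39.4 and 39.5 kb in DMSO and 36.0, 39.1 and 36.7 kb in doxycycline, at ranks 21 to 118 of each list by width. TBX2 lay between 34.1 and 48.8 kb, GATA3 between 30.9 and 36.4 kb, LMO1 between 26.6 and 52.6 kb and TFAP2B between 20.9 and 37.4 kb. ISL1 (12.6 to 14.1 kb) and PHOX2A (10.7 to 19.95 kb) had the shortest, at ranks of 306 to 1047 and 447 to 986. 

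**Figure D3:**
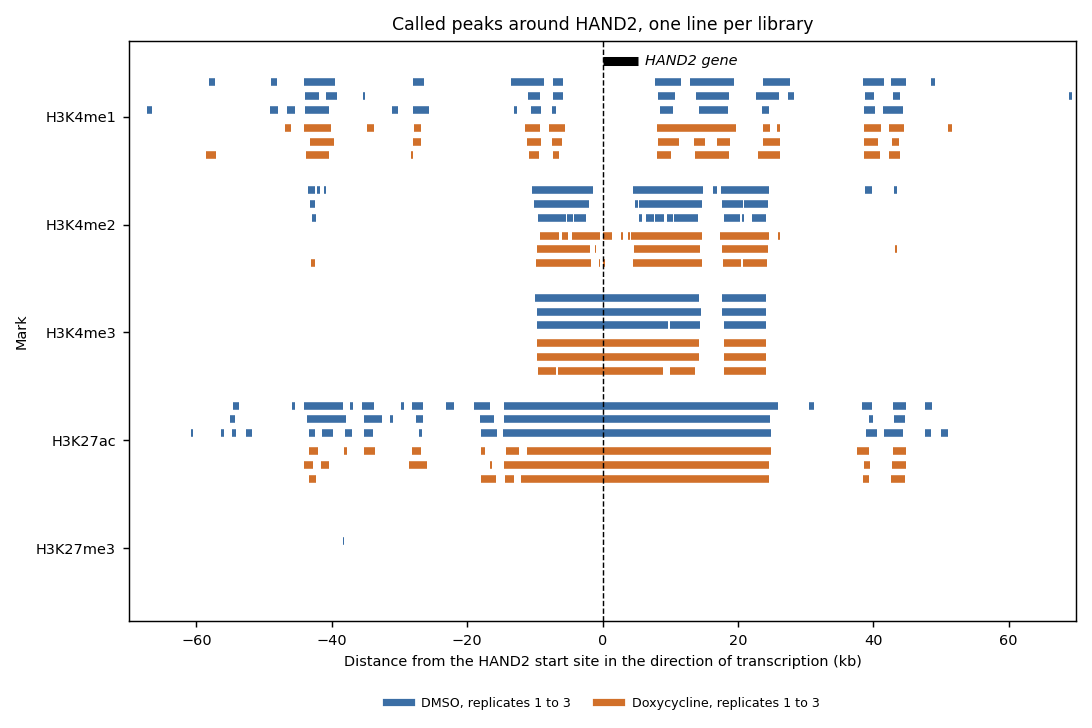
Called peaks (bars) of all 30 lists within 70 kb of the HAND2 start site; the horizontal axis is distance in kb in the direction of transcription and each line is 1 library (blue, DMSO; orange, doxycycline). H3K4me3 and H3K27ac peaks cover the start in every line, H3K4me1 is absent from 5.62 kb before it to 7.73 kb after it, and the H3K4me2 gap at the start is interrupted by peaks in doxycycline, the longest of 4.26 kb in replicate 1.

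The comparison of doxycycline with DMSO asked whether these marks changed when the hairpin was induced. Each value below was compared by an exact two-sided permutation test over the 20 assignments of the 6 libraries, whose smallest possible p is 0.1, so no test could pass 0.05 and non-overlap of the groups is given as a description. The calling depth, the smaller of ChIP and input reads, was 71.9 to 81.1 M reads in the 15 DMSO lists and 57.0 to 63.4 M reads in the 15 doxycycline lists. These ranges do not overlap, so an effect of treatment and one of depth cannot be told apart. MACS2, the peak caller, scaled the larger library down to the smaller, so the doxycycline lists were shallower throughout. The H3K27ac lists held 55153 to 71603 peaks in DMSO and 48171 to 60292 in doxycycline, fewer in each same-numbered pair. A percentile depends on the length of its list, and percentiles were not recomputed in lists of equal length.

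HAND2 gained H3K4me2 calls at its start. No DMSO library had a promoter peak, and all 3 doxycycline libraries had one, at percentiles of 74.5, 10.1 and 28.3. This pattern, 0 of 3 against 3 of 3, was found at 6 genes, 0.03% of the total, and HAND2 was the only member among them. The gain was uneven. In doxycycline replicate 1 the longest peak was 4.26 kb with a fold enrichment of 12.3, while in replicates 2 and 3 the longest were 0.261 and 0.210 kb. The strongest peaks there had fold enrichments of 3.47 and 4.43. Doxycycline replicate 1 also gave the highest H3K4me2 fold enrichment at the promoter of every other member. At PHOX2A it was 24.0, beside at most 13.1 in the other libraries, and at GATA3 28.3, beside at most 15.7. In DMSO the nearest H3K4me2 peak upstream of the start lay 1.41, 2.07 and 2.38 kb away, just outside the window. With a promoter of 2.5 kb either side, all 3 DMSO and all 3 doxycycline libraries had a peak, and when a peak had to overlap the 1 kb promoter by 200 bp, 2 of 3 doxycycline libraries did. Over the gene itself H3K4me2 covered 0.83, 0.35 and 0 kb in DMSO and 3.02, 0.57 and 0.97 kb in doxycycline, and these groups overlapped.

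H3K27ac around HAND2 was shorter in doxycycline. In the gene and the 100 kb either side, which hold no other protein-coding start, peaks covered 61.5, 56.5 and 55.8 kb in DMSO and 47.4, 47.5 and 44.2 kb in doxycycline. The means were 57.9 ± 3.13 kb and 46.4 ± 1.85 kb (SD, n = 3 each). The groups did not overlap. On the log2(kb + 1) scale the difference was -0.31 (exact permutation p = 0.1, adjusted p = 0.644 over all genes by Benjamini-Hochberg), and -0.19 with peaks of q 0.001 or less. Covered length fell in this non-overlapping way at 12.8% of all genes and rose at 2.72%, so 1 of 8 members is close to the share over all genes. The H3K27ac peak at the HAND2 promoter was also lower in percentile without overlap, by 0.17 (99.96 ± 0.033 against 99.80 ± 0.13, n = 3 each; exact permutation p = 0.1, adjusted p = 0.775), and by 0.09 without doxycycline replicate 3. Its fold enrichment was 15.4 ± 4.90 in DMSO and 17.1 ± 6.14 in doxycycline, so the order of the means was the other way round.

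One H3K27ac region near HAND2 was called in all 3 DMSO and no doxycycline library. It lay 53.7 kb upstream of the start at chr4:173583896-173585286, over an exon of HAND2-AS1, the long noncoding RNA transcribed divergently from HAND2. Its percentiles were 31.3, 6.43 and 18.5, so it was a weak peak in each list. Regions called in all 3 DMSO and 0 of 3 doxycycline libraries were 2.7% of all H3K27ac regions, and the reverse 0.6%. Of 106 H3K27ac regions near the members 1 was found in each direction. The other was 51.2 kb upstream of LMO1 at chr11:8315091-8316353, in no annotated gene, with percentiles of 49.5, 46.1 and 30.6 in doxycycline.

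H3K4me1 around ISL1 was shorter in doxycycline. Peaks covered 26.9, 21.96 and 29.8 kb in DMSO and 21.4, 15.3 and 14.0 kb in doxycycline within the gene and 100 kb either side, where no other protein-coding gene starts. The means were 26.2 ± 3.98 kb and 16.9 ± 3.97 kb (SD, n = 3 each), and the lowest DMSO library lay just above the highest doxycycline library. The difference was -0.62 on the log2(kb + 1) scale (exact permutation p = 0.1, adjusted p = 0.952). Among all genes ISL1 moved from percentiles of 54.1, 58.4 and 69.3 for H3K4me1 covered length to 50.8, 52.6 and 46.5. Covered H3K4me1 length fell without overlap at 4.9% of genes and rose at 1.06%, against 1 and 0 of the 8 members. The groups overlapped with peaks of q 0.001 or less, and within 50 kb.

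Of the 4 H3K4me1 regions near members that were called only in DMSO, 3 lay around ISL1, an early gene of sympathetic and motor neurons. The strongest was the element printed above, at chr5:51367578-51368089, 15.4 kb upstream of the start and in no annotated gene. Its percentiles were 72.7, 79.4 and 76.6. The other 2 lay 59.2 kb upstream at chr5:51323062-51324288 and 17.8 kb downstream at chr5:51401219-51402905, with mean percentiles of 26.9 and 31.1. The fourth lay 12.0 kb upstream of PHOX2A at chr11:72256152-72256817, at percentiles of 74.4, 20.2 and 29.8. No H3K4me1 region near a member was called only in doxycycline. Of all H3K4me1 regions 1.45% were called only in DMSO and 0.313% only in doxycycline, and of the 177 near members 4 and 0 were. With peaks of q 0.001 or less the 4 fell to 0, since none of them passed that limit in all 3 DMSO libraries.

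**Figure D4:**
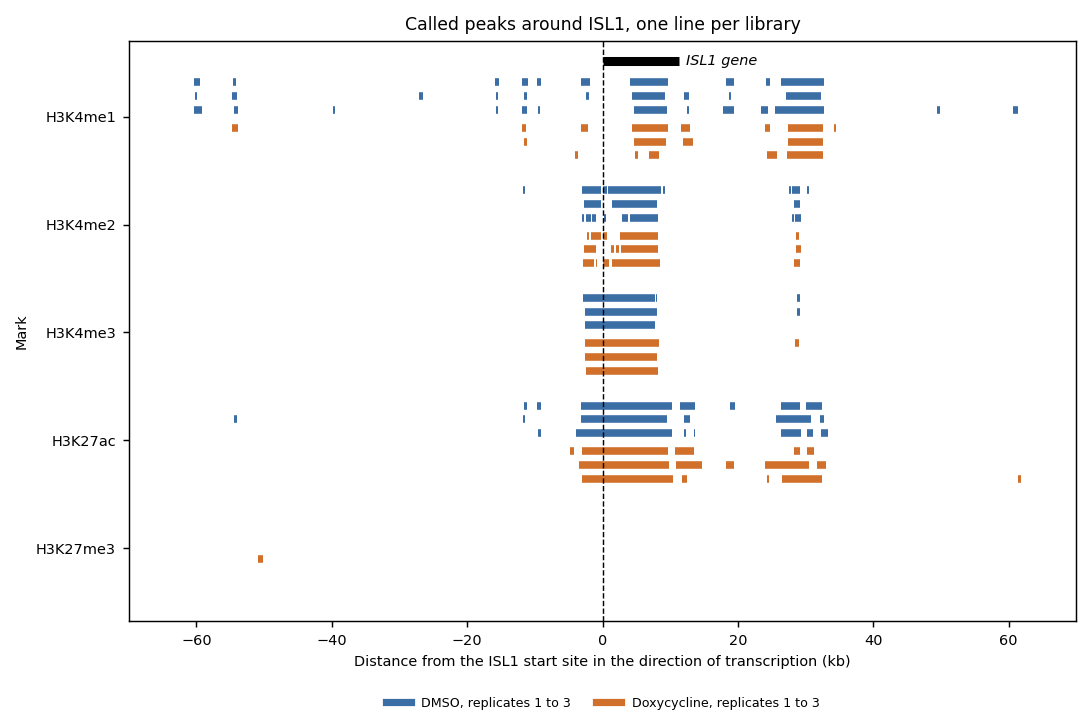
Called peaks (bars) of all 30 lists within 70 kb of the ISL1 start site; the horizontal axis is distance in kb in the direction of transcription and each line is 1 library (blue, DMSO; orange, doxycycline). The H3K4me1 element 15.4 kb upstream is present in the 3 DMSO lines and in none of the doxycycline lines, while H3K4me3 and H3K27ac peaks cover the start in every line.

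TBX2 was the member whose treatments did not overlap in promoter rank for either active mark, both lower in doxycycline. Its H3K4me3 percentiles were 86.4, 85.8 and 83.7 in DMSO and 71.9, 64.7 and 63.7 in doxycycline. The means were 85.3 ± 1.40 and 66.8 ± 4.46 (SD, n = 3 each), a difference of -18.5 without overlap (exact permutation p = 0.1, adjusted p = 0.803). Its H3K27ac percentiles were 94.1, 96.4 and 96.1 in DMSO and 93.8, 93.6 and 92.4 in doxycycline, a difference of -2.29 (exact permutation p = 0.1, adjusted p = 0.775). Ranked by −log10 q instead, the differences were -5.02 for H3K4me3 and -0.92 for H3K27ac, again without overlap. For the H3K27ac percentile the nearest values, 94.1 in DMSO and 93.8 in doxycycline, differed by less than the spread within DMSO. For the H3K4me3 percentile the nearest values were 83.7 and 71.9, further apart than the DMSO values were from each other. The H3K4me3 fold enrichment itself was 39.1, 45.9 and 24.9 in DMSO and 34.5, 31.5 and 19.0 in doxycycline, and these groups overlapped. The H3K27ac fold enrichment had the higher mean in doxycycline, 9.48 ± 2.42 against 8.02 ± 1.43. The doxycycline H3K27ac lists were also shorter, and the effect of this on the percentile was not tested. The width of the TBX2 H3K4me3 peak did not separate the treatments, at 9.64, 10.3 and 8.98 kb in DMSO and 10.5, 10.5 and 8.71 kb in doxycycline.

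Few members separated by treatment in promoter rank, and in no mark did more than 2 do so. For H3K27ac 2 of 8 were lower (8.46% of all genes) and 0 higher (4.45%). For H3K4me3 1 was lower (6.83%) and 0 higher (5.63%). For H3K4me2 1 was higher, HAND2 (4.49%), and 0 lower (3.83%). For H3K4me1 0 were higher (4.98%) or lower (5.63%), and for H3K27me3 0 were higher (1.23%) or lower (0.881%), there being no peak to rank. Over all genes the median difference in H3K27ac percentile was 0, but genes without a peak in either treatment enter it as 0. All 8 members had peaks in all 6 libraries, so that median is not a like background for them. The H3K27ac shares and counts over all genes in this paragraph include the same genes without peaks and have the same limit. The H3K27ac percentile had a lower mean in doxycycline at all 8 members, with a median difference of -1.30. Without doxycycline replicate 3 that median was -0.67. Within same-numbered pairs it was lower in all 3 at 4 members (HAND2, GATA3, ISL1 and TBX2; 19% of all genes) and higher in all 3 at 0 (11.1%), and at PHOX2A, GATA2, LMO1 and TFAP2B the pairs differed in sign. Of all genes 8337 had a lower and 5937 a higher H3K27ac percentile, and 6 of the 8 members overlapped between treatments. The shorter H3K27ac lists of doxycycline bear on all these percentiles, and their effect was not tested.

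Covered length near the members otherwise overlapped between treatments. Within same-numbered pairs, H3K4me1 was lower in doxycycline in all 3 at 5 members (PHOX2A, HAND2, GATA3, ISL1 and TBX2; 42.3% of all genes) and higher in all 3 at 0 (9.23%). Around HAND2 it covered 39.5, 26.0 and 29.5 kb in DMSO and 34.8, 23.2 and 24.9 kb in doxycycline. For H3K4me2 0 members were higher (0.275% of all genes) or lower (0.28%), for H3K4me3 0 were higher (1.16%) or lower (4.38%), and for H3K27me3 0 were higher (0.446%) or lower (0.0951%). The median difference over members on the log2(kb + 1) scale was -0.07 for H3K4me1 beside -0.13 over all genes, 0.13 beside 0.10 for H3K4me2, -0.01 beside -0.03 for H3K4me3 and 0.00 beside -0.02 for H3K27ac. For H3K27me3 it was -0.01 beside 0.36. Most members had little or no H3K27me3 cover that could change, as given above, so these values are not a like comparison. The H3K27me3 lists also differed widely, with 62490 to 157087 peaks in DMSO and 56926 to 135665 in doxycycline. For all marks the medians over members rest on single libraries. For H3K4me1 the median was 0.001 without DMSO replicate 1 and -0.23 without doxycycline replicate 1. For H3K4me2 it was 0.36 without DMSO replicate 1, -0.09 without DMSO replicate 3 and 0.02 without doxycycline replicate 1. For H3K4me3, H3K27ac and H3K27me3 its sign also changed with the library left out.

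**Figure D5:**
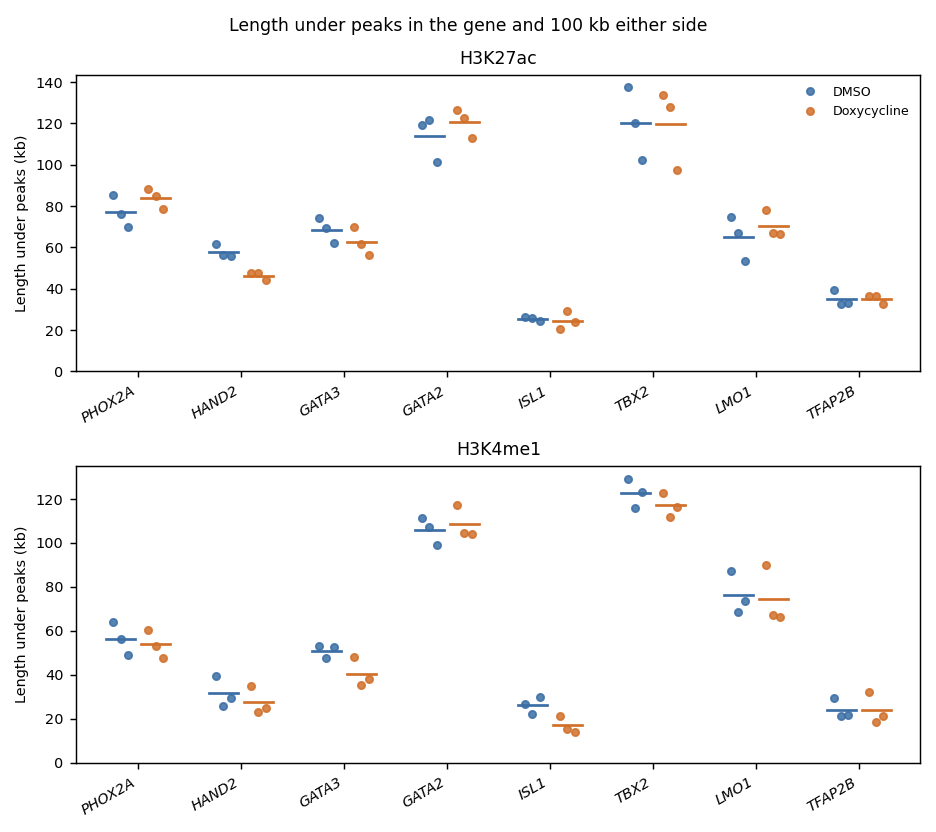
Length under H3K27ac (top) and H3K4me1 (bottom) peaks, in kb, in each member gene and 100 kb either side. Points are single libraries (blue, DMSO; orange, doxycycline) and bars are means of 3; the treatments do not overlap for H3K27ac at HAND2 and for H3K4me1 at ISL1, and overlap at the other members.

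The members differed from one another far more than the treatments did. H3K27ac covered 97.3 to 138 kb around TBX2 and 101 to 126 kb around GATA2, but 20.3 to 29.3 kb around ISL1 and 32.4 to 39.5 kb around TFAP2B. Around PHOX2A it covered 69.9 to 88.1 kb, around LMO1 53.2 to 78.2 kb and around GATA3 56.2 to 74.0 kb, and these 3 ranges overlapped. The windows of TBX2, PHOX2A, GATA2 and LMO1 also hold the starts of 2, 5, 1 and 1 other protein-coding genes, so part of that length belongs to neighbours such as BCAS3 and TBX4. Among all protein-coding genes TBX2 and GATA2 were at or above percentile 98.9 for H3K27ac covered length in every library, and ISL1 was at 64.0 to 77.7. H3K4me2 gave GATA2 percentiles of at least 99.7 and ISL1 39.9 to 62.0.

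Within the gene bodies ISL1 had more H3K4me3 in doxycycline, 7.96, 8.01 and 7.69 kb in DMSO against 8.30, 8.10 and 8.12 kb. The groups did not overlap and the difference was 0.05 on the log2(kb + 1) scale (exact permutation p = 0.1, adjusted p = 1). Such a rise was found at 2.73% of all genes and the reverse at 6.07%, against 1 and 0 members.

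Distal elements near the members were classed from consensus regions, those with a peak in all 3 libraries of a treatment. H3K4me1 regions without H3K4me3 counted as active with H3K27ac, poised with H3K27me3 and primed with neither. Active elements numbered 31 in DMSO and 35 in doxycycline, but 46 and 41 when a peak in 2 of 3 libraries was enough. Poised elements numbered 0 in both. Primed elements numbered 31 in DMSO and 19 in doxycycline, and with all lists cut to equal length they numbered 17 and 15. GATA3, GATA2 and TBX2 had 7, 7 and 8 active elements in DMSO and 6, 5 and 7 in doxycycline. LMO1 went from 2 active elements in DMSO to 7 in doxycycline, and ISL1 from 7 primed elements to 1. TFAP2B had 1 active element in each treatment and HAND2 2 and 3. With 1 consensus per treatment these counts have no replicate spread, and the differences between treatments were not tested. Element classes are given for the members only, so no share over all genes stands beside these shifts.

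The gene profiles nearest to the members were found from the 30 promoter percentiles of each gene. The genes closest to the members' median profile by Euclidean distance were PHOX2A itself (31.5), then NCL (34.2), ZNF764 (34.4), SHBG (34.6), ATL2 (36.5) and CUL1 (37.0). GATA3 followed at rank 7. HAND2 was at rank 12513, ISL1 at 10874 and TFAP2B at 10191 of 19970 genes, and these 3 are the members without H3K4me1 in all 6 libraries.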

How the data were processed

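KELLY ChIP-seq peak lists were analysed for 5 marks, 3 libraries per mark and treatment. The submitters' labels also name 4 inputs, which entered only through the calls. The authors aligned reads to hg38 at mapping quality 30 or more and called peaks per library with MACS2 2.1.1.20160309. Per the file headers, broad peaks were called for H3K27me3, H3K4me1 and H3K27ac (q 0.05, linked at 0.1) and narrow ones for H3K4me2 and H3K4me3 (p 1e-5), whereas the study's methods give q 0.05 for all, and the inputs of replicates 1 and 3 have equal read totals. The deposited pileup is a coverage signal, the deposited fold enrichment a ratio to local input, and each deposited peak also has a −log10 p-value with its −log10 q-value. Broad peaks carry means over the peak and narrow peaks summit values, so strength was ranked within lists only.

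Peaks were intersected with GENCODE release 44 genes with python 3.11.15, numpy 2.4.6 and pandas 2.3.3, and functions were tested on simulated data. Covered length is the length under merged peaks. The exact permutation test and the Benjamini-Hochberg adjustment covered all 19970 genes. Percentages given for all genes are the background. Same-numbered libraries deviated together in covered length for H3K4me1, H3K4me2, H3K4me3 and H3K27ac (lowest correlation 0.174), but not in H3K27me3 (-0.34 in 1 pair). The members and lists were chosen with earlier results of these data known. Named genes were the 8 members, their family relatives, 16 circuit genes, cell type markers, the 5 nearest profiles and, per mark and direction, the strongest region called in one treatment only, of which all 6 near members are given. Some genes of these lists are not reported here. Alternatives were a q of 0.001 or less, lists of equal length, other promoter definitions, 50 kb windows, another rank, 2 of 3 replicates, stitching, left-out libraries and the replicate block.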

Additional observations from a re-analysis of the deposited data

How the results depend on the processing

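The counts of members with a promoter peak in all 6 libraries kept their values within 1.5 times under every alternative run, except that with the MANE Select start alone H3K4me1 was called at 2 members. The paired analysis with the replicate block left every difference as it was, for example -0.31 for H3K27ac around HAND2, with an exact sign-flip p = 0.25, the smallest it allows. Covered H3K27ac around HAND2, covered H3K4me1 around ISL1 and the H3K27ac and H3K4me3 ranks of TBX2 kept their direction under the alternatives run for them. By percentile of −log10 q the HAND2 H3K27ac difference was -0.33 with overlapping groups, and the HAND2 H3K4me2 rank difference was 0.18 with a 2.5 kb promoter, where the difference in libraries with a peak was 0, and 19.2 without doxycycline replicate 1. With lists of equal length covered H3K4me1 separated at 2 members. Regions called in one treatment only were the least stable, and the cause was not tested. At a q of 0.001 or less, H3K4me1 regions in DMSO only fell to 0 and H3K27ac regions in doxycycline only to 0. With lists of equal length, H3K27ac regions in DMSO only numbered 0, H3K4me2 regions in DMSO only 1 and primed elements in DMSO 17. Leaving out one library at a time gave 4 to 9 H3K4me1 regions in DMSO only (9 without doxycycline replicate 1) and 0 to 3 in doxycycline only. For H3K27ac it gave 1 to 6 in DMSO only (6 without DMSO replicate 3) and 1 to 3 in doxycycline only, for H3K4me2 0 to 2 in each direction, and for H3K4me3 0 to 2 in DMSO only and 0 to 3 in doxycycline only. The signs within same-numbered pairs were added after the data were seen. Fewer libraries make this criterion easier to meet. Stitching H3K27ac peaks within 12 kb raised the median domain over members from 33.3 to 94.2 kb in DMSO and from 36.1 to 59.4 kb in doxycycline. Limits are the 3 libraries per group, the lower calling depth in doxycycline and the use of called peaks without read counts, so a missing peak means only that none was called at that depth.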
